A study of Arabidopsis thaliana with 6 samples.

Results

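The genes described here are the nad and cox genes of the mitochondrial genome of Arabidopsis thaliana, measured in leaf RNA on Affymetrix ATH1 arrays. They were taken as every probe set that the array annotation ties to a single gene whose symbol is nad or cox followed by a digit. This gave 17 of the 22746 probe sets tested, for 10 genes, and each probe set was kept apart. The 17 comprise 15 probe sets of 8 nad genes and 2 probe sets of 2 cox genes. A further 3 probe sets, which list nad1 (2 sets) or cox3 (1 set) together with a gene of chromosome 2, were left out, and nad3 had no probe set with a single name. All 10 gene symbols matched a gene of the mitochondrial genome in the reference table, which holds 12 nad and cox genes.

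The study set 3 arrays of the des1-1 mutant (SALK_03855) against 3 arrays of its wild type, accession Col-0. Both groups were 3 weeks old, grew in soil with Hoagland medium under long days, and received no further treatment. DES1 belongs to the O-acetylserine(thiol)lyase family of cysteine metabolism, and the comparison asks which leaf transcripts differ when it is disrupted. The DES1 transcript was not analysed here, because no probe set carries its name alone, so the genotype labels were not checked on it, and des1-1 is a single insertion line.

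The nad genes encode subunits of complex I, which passes electrons from NADH to ubiquinone, and the cox genes encode subunits of complex IV, which passes electrons from cytochrome c to oxygen. Both complexes pump protons across the inner mitochondrial membrane, and both also contain many subunits made from nuclear genes. In plants the transcripts of nad1, nad2 and nad5 are put together by trans-splicing from separately transcribed pieces, and most mitochondrial messages are edited from C to U. Plant mitochondrial messages carry no stable poly(A) tail, while standard Affymetrix labelling of plant RNA starts from an oligo(dT) primer, so the values describe RNA that this labelling could copy. The Col-0 nuclear genome carries a large copy of mitochondrial DNA on chromosome 2, and probe sets of the mitochondrial genes can bind transcripts of that copy.

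Leaf identity was checked on the few marker genes with a named probe set. The photosynthesis genes RCA, PRK and LHCB4.2, 3 of 6 on the leaf list, read 12.33 to 14.12 on the log2 scale over the 6 arrays. The root hair genes EXPA7 and EXPA18, 2 of 3 on the root list, read 4.73 to 5.74, and the flower and dividing-cell lists had no named probe set. None of these 5 differed between genotypes at an unadjusted p under 0.05 in limma. In PRK every mutant array lay below every wild-type array (log2 difference -0.17), as in 8.66% of all probe sets, and the others overlapped. Array medians lay between 5.78 and 5.81. One array stood apart in its 25S ribosomal RNA control, wild type 2 at 10.2, while the other five gave 5.49 to 6.20. Between the 3′ and 5′ control probes of GAPDH the log2 signal differed by -0.57, -0.32 and -0.51 in des1-1, against -0.74, -0.65 and -0.66 in wild type, so this sign of RNA quality did not overlap between the genotypes. The same quantity for actin did overlap, at 1.40, 1.33 and 1.24 in des1-1 and 1.43, 1.33 and 1.09 in wild type. The part of these controls in the results below was not tested.

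In des1-1 leaves, cox1 and 2 of the 7 probe sets of nad1 rose, between 1.56 and 1.69-fold, and no nad or cox probe set fell. In leaf RNA as a whole, more mitochondria-rich cells and more of these transcripts per cell cannot be told apart. A probe set is said to have risen or fallen where its adjusted p was under 0.05 in limma, with Benjamini-Hochberg adjustment over all 22746 probe sets. Of the 17 probe sets 3 rose, while 0.33% of all probe sets rose. None fell in limma, while 0.0572% of all probe sets did, and at an unadjusted p under 0.05 the members counted 8 higher and 2 lower, against 7.9% higher and 7.66% lower over all probe sets. The 2 lower of 17 are near that general share. The 3 mutant arrays exceeded the 3 wild-type arrays, without overlap, in 7 of the 17, against 9.87% of all probe sets, and lay below them in 2 of the 17, against 8.66%, again a share near the general one. The median log2 difference of the 17 was 0.24, beside 0.00 over all probe sets, with 15 higher and 2 lower, and over all probe sets 11359 were higher and 11144 lower. Probe sets of nad1 and nad5 share a gene, so the 17 are not independent measurements.

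**Figure D1:**
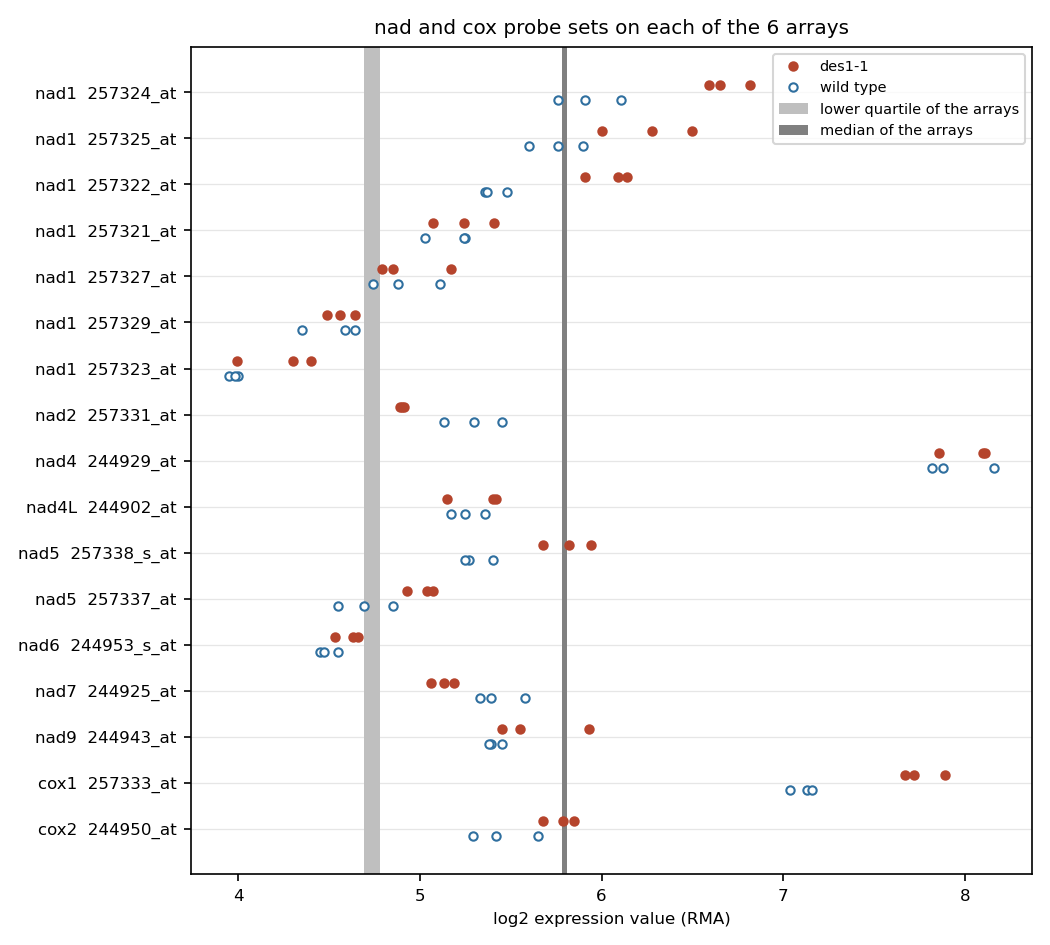
Log2 expression values (horizontal axis) of the 17 nad and cox probe sets (vertical axis) on each array, with des1-1 as filled points above and wild type as open points below. The light band spans the lower quartiles of the 6 arrays and the dark band their medians. Every filled point lies to the right of every open point for 3 nad1 sets, both nad5 sets, cox1 and cox2, and to the left for nad2 and nad7.

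The 3 rises rested on the full set of arrays. In limma fits with 1 array left out, cox1 and both nad1 sets kept their call only without des1-1 1. Without des1-1 2, des1-1 3, or wild type 1, 2 or 3, the count of nad and cox probe sets past the test was 0, with adjusted p of 0.0519 to 0.143 for cox1, 0.0613 to 0.171 for nad1 257324_at and 0.0834 to 0.138 for nad1 257322_at. Their log2 differences in those fits stayed at 0.585 or more. Without des1-1 1 the count was 5, the 3 above with nad1 257325_at (adjusted p = 0.0346) and nad5 257338_s_at (adjusted p = 0.0478).

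The nad1 gene encodes a membrane-arm subunit of complex I close to the ubiquinone site. Its 7 probe sets gave log2 differences of 0.03 to 0.76, all positive with the 6 arrays equally weighted, while those of 257321_at, 257327_at and 257329_at changed sign when single arrays were left out. The annotation does not say which piece of the trans-spliced gene each set reads.

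Probe set 257324_at of nad1 read 6.65, 6.59 and 6.82 in des1-1, against 5.76, 5.91 and 6.11 in wild type. Every mutant value exceeded every wild-type value, by 0.48 at the least. It rose 1.69-fold, with a log2 difference of 0.76 ± 0.11 SE (adjusted p = 0.029 in limma). Probe set 257322_at read 5.91, 6.14 and 6.09 in des1-1 and 5.36, 5.48 and 5.37 in wild type. The genotypes again did not overlap, and this set rose 1.56-fold (log2 difference 0.64 ± 0.09 SE, adjusted p = 0.0248).

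Probe set 257325_at of nad1 read 6.0, 6.28 and 6.50 in des1-1 and 5.60, 5.76 and 5.90 in wild type. The genotypes did not overlap, but the mutant arrays were spread more widely (SD 0.25 in des1-1 and 0.15 in wild type), and the difference of 0.51 ± 0.13 SE did not pass the test (adjusted p = 0.151).

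In the remaining 4 probe sets of nad1 the genotypes overlapped. Probe set 257321_at read 5.07, 5.41 and 5.24 in des1-1 and 5.03, 5.25 and 5.24 in wild type. Probe set 257327_at read 4.85, 5.17 and 4.79 in des1-1 and 4.88, 5.11 and 4.74 in wild type. Both had replicate 2 as the highest array in each genotype, and their differences were 0.07 (95% interval -0.18 to 0.31) and 0.03 (-0.27 to 0.32).

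The last 2 nad1 sets were dim, below the lower quartile of every array. Probe set 257329_at read 4.49, 4.64 and 4.56 in des1-1 and 4.35, 4.59 and 4.64 in wild type (difference 0.04, 95% interval -0.18 to 0.25). Probe set 257323_at read 4.30, 3.99 and 4.40 in des1-1 and 4.00, 3.95 and 3.98 in wild type. Here only des1-1 2 lay within the wild-type range, and the difference was 0.25 (95% interval 0.01 to 0.50, adjusted p = 0.306 in limma). The 95% intervals of the 2 sets that rose, 0.52 to 1.00 for 257324_at and 0.45 to 0.84 for 257322_at, lay wholly above those of 257321_at, 257327_at and 257329_at, whose upper ends were 0.31, 0.32 and 0.25. The intervals of the other nad1 sets, 0.20 to 0.81 for 257325_at and 0.01 to 0.50 for 257323_at, overlapped that of 257322_at as well as those of the 3 sets near 0. A difference in response between sets of nad1 was not itself tested.

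**Figure D2:**
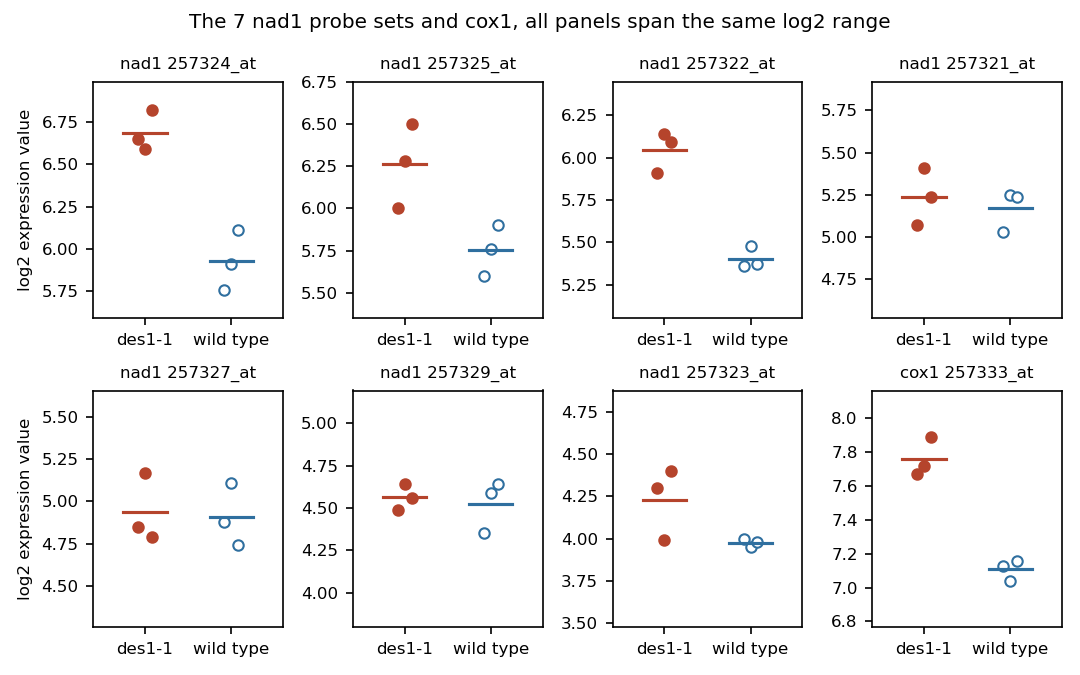
Log2 expression values (vertical axis) of the 7 nad1 probe sets and of cox1 in des1-1 (left, filled) and wild type (right, open), with 1 point per array and a bar at the mean of 3 arrays. All panels span the same number of log2 units, and the genotypes are apart for 257324_at, 257325_at, 257322_at and cox1 and overlap in the other panels.

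The intron-borne gene matR, which encodes a maturase and lies within an intron of nad1, had 1 probe set. It read 4.97, 5.15 and 5.0 in des1-1 and 5.15, 4.98 and 4.98 in wild type, a log2 difference of 0.00 (95% interval -0.19 to 0.20). The genotypes overlapped fully.

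Of the other membrane-arm subunits of complex I, nad5 gave higher values and nad2 lower ones, none past the test. Probe set 257338_s_at of nad5, which encodes a proton-pumping subunit, read 5.82, 5.68 and 5.94 in des1-1 and 5.27, 5.25 and 5.40 in wild type. The other nad5 set, 257337_at, read 4.93, 5.07 and 5.04 in des1-1 and 4.55, 4.85 and 4.69 in wild type. The suffix _s_at marks, in the naming of the array maker, a set whose probes match more than 1 transcript, and the sets of nad6, ccb452, matR and orfX described here carry it too. The genotypes did not overlap in either set. The differences were 0.51 ± 0.09 SE (adjusted p = 0.0687 in limma) and 0.32 ± 0.09 SE (adjusted p = 0.174).

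The nad2 probe set, of another proton-pumping subunit, read 4.91, 4.89 and 4.90 in des1-1 and 5.30, 5.45 and 5.13 in wild type. All mutant arrays lay below all wild-type arrays, with an SD of 0.01 in des1-1 and 0.16 in wild type. Its difference was -0.39 ± 0.09 SE (adjusted p = 0.131 in limma), the lowest of the 17.

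The nad4, nad4L and nad6 genes encode further membrane-arm subunits. The nad4 set read 8.10, 7.86 and 8.11 in des1-1 and 8.16, 7.88 and 7.82 in wild type, with full overlap at values above the median of every array. Its difference was 0.07 (95% interval -0.19 to 0.33).

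The nad4L set, of the smallest of these subunits, read 5.15, 5.40 and 5.42 in des1-1 and 5.25, 5.17 and 5.36 in wild type. The mutant arrays held both the lowest and the highest values, and the difference was 0.06 (95% interval -0.16 to 0.28). The nad6 set read 4.63, 4.66 and 4.53 in des1-1 and 4.45, 4.55 and 4.47 in wild type, below the lower quartile of every array (difference 0.12, 95% interval -0.05 to 0.29).

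The nad7 and nad9 genes encode subunits of the peripheral arm, where electrons reach ubiquinone. The nad7 set read 5.06, 5.19 and 5.13 in des1-1 and 5.39, 5.58 and 5.33 in wild type. As for nad2, all mutant arrays lay below all wild-type arrays, and the difference of -0.31 ± 0.09 SE did not pass (adjusted p = 0.166 in limma). The nad9 set read 5.93, 5.45 and 5.55 in des1-1 and 5.39, 5.38 and 5.45 in wild type. Its high mutant mean came mostly from des1-1 1, and its difference was 0.24 (95% interval -0.04 to 0.51); without des1-1 1 it was 0.09.

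Both cox genes kept here were higher in des1-1. The cox1 gene encodes the catalytic subunit that binds oxygen, and its probe set read 7.67, 7.72 and 7.89 in des1-1, against 7.13, 7.04 and 7.16 in wild type. The mutant arrays lay at least 0.51 above the wild-type arrays. It rose 1.57-fold, with a mean of 7.76 ± 0.12 in des1-1 and 7.11 ± 0.06 in wild type (SD, n = 3 each; log2 difference 0.65 ± 0.08 SE, adjusted p = 0.0228 in limma).

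The cox2 gene encodes the subunit that receives electrons from cytochrome c. Its probe set read 5.68, 5.79 and 5.85 in des1-1 and 5.29, 5.42 and 5.65 in wild type. The genotypes were apart by only 0.03 at their nearest values. The difference of 0.32 ± 0.10 SE did not pass (adjusted p = 0.201 in limma).

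**Figure D3:**
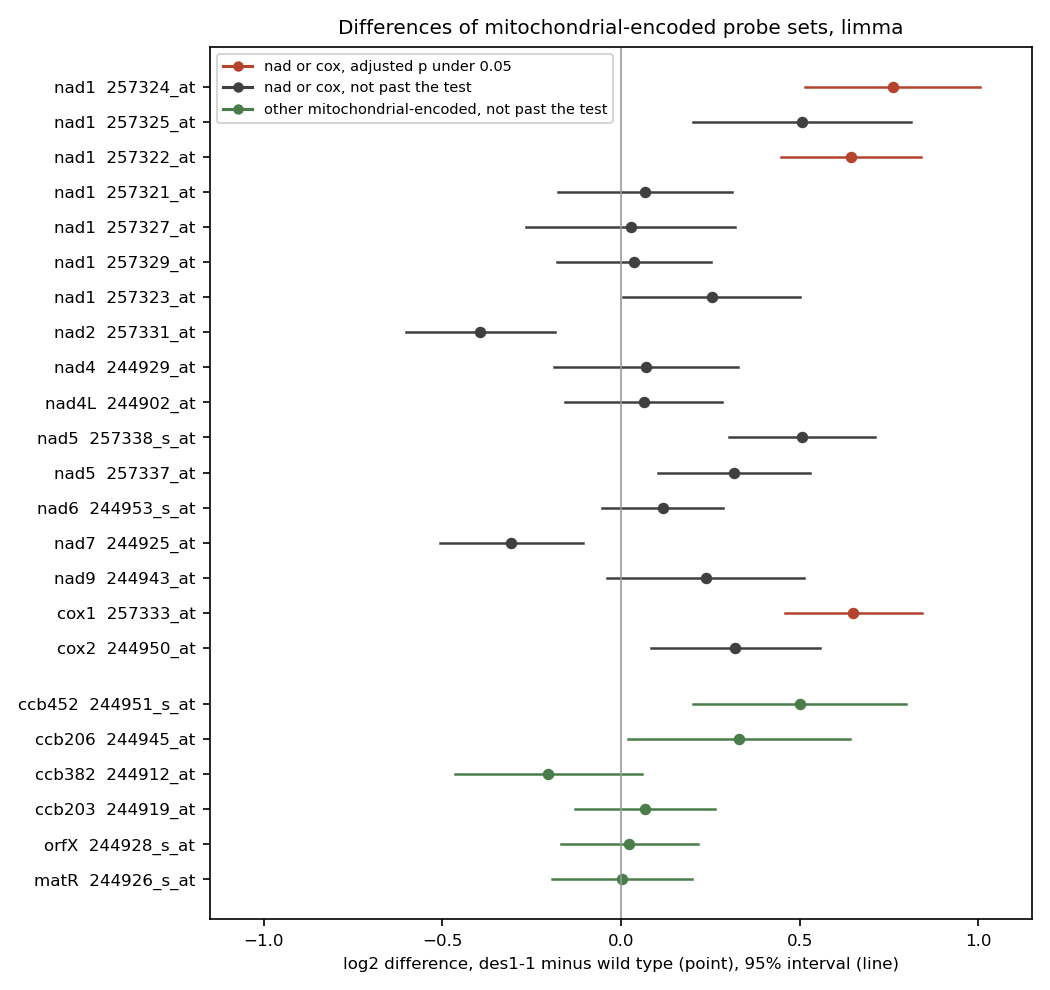
Log2 differences, des1-1 minus wild type (horizontal axis, points), with 95% intervals from limma (lines), for the 17 nad and cox probe sets and the 6 other mitochondrial-encoded probe sets (vertical axis). The 3 probe sets past the test are cox1 and nad1 257324_at and 257322_at, and the intervals of nad2 and nad7 lie below 0.

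Over the 17 probe sets, des1-1 3 held the highest value in 7, des1-1 2 in 6 and des1-1 1 in 1, and wild type 1 held the lowest value in 8. Centred on each probe set's mean over the 6 arrays, the members averaged 0.07, 0.11 and 0.16 in des1-1 and -0.17, -0.08 and -0.09 in wild type. The genotypes did not overlap in this average. The median member value did overlap, at 5.15, 5.41 and 5.42 in des1-1 and 5.29, 5.38 and 5.36 in wild type.

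The 17 were on the dim side, with a median level of 5.29 beside 5.81 over all probe sets. This limits what can be read from a small difference, since RMA compresses differences of dim probe sets. Below the array median on all 6 arrays lay 9 of them, and 3 lay below the lower quartile on all 6. Medians and quartiles split all probe sets by definition, so these counts alone do not set the members apart. Only nad4 and cox1 lay above the median on every array. A difference above the 95th percentile of all probe sets, 0.29, was found for 7 of the 17, and 1, nad2, lay under the 5th percentile, -0.31. No member differed as much as 2-fold.

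**Figure D4:**
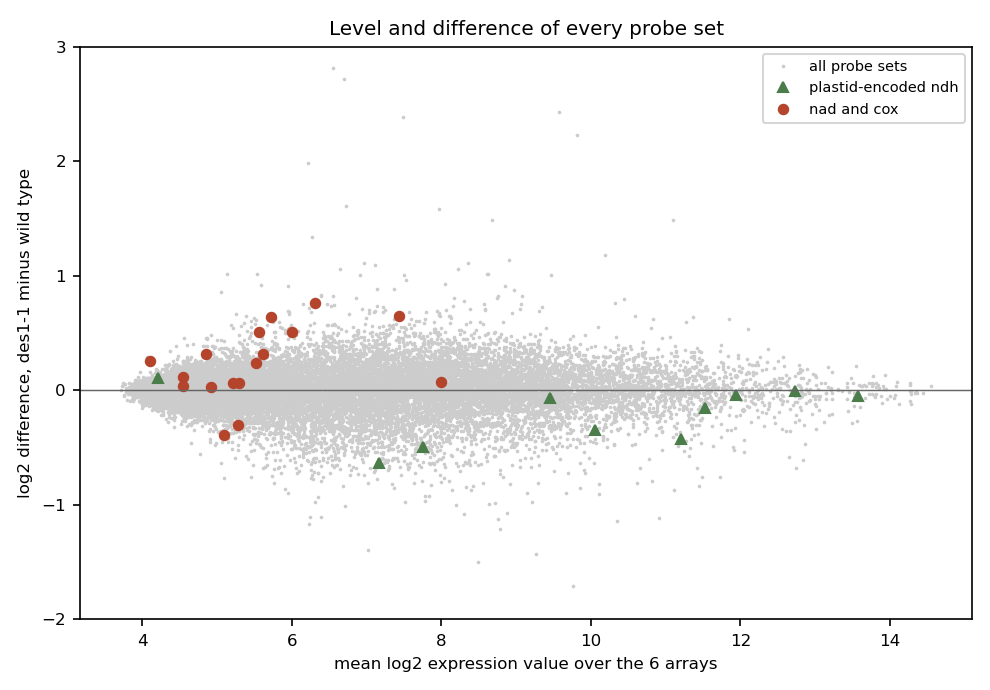
Mean log2 expression value over the 6 arrays (horizontal axis) and log2 difference, des1-1 minus wild type (vertical axis), of every probe set (grey), with nad and cox in red and the plastid-encoded ndh genes as green triangles. The red points lie mostly in the left part of the plot with 15 of 17 above 0, and 9 of the 10 triangles lie below 0.

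The other 6 mitochondrial-encoded probe sets with a single name had a median difference of 0.05, with 5 higher and 1 lower. No set passed the limma test, and 2 were higher at an unadjusted p under 0.05, against 7.9% of all probe sets, both of them genes of cytochrome c maturation, the attachment of haem to cytochrome c. Of these, ccb452 read 6.59, 6.69 and 7.11 in des1-1 and 6.37, 6.26 and 6.26 in wild type (difference 0.50 ± 0.13 SE, adjusted p = 0.148). The ccb206 set read 4.83, 5.36 and 4.99 in des1-1 and 4.59, 4.82 and 4.78 in wild type (difference 0.33, adjusted p = 0.289). In both the genotypes did not overlap, as in 9.87% of all probe sets with des1-1 above. The remaining members of that pathway, ccb382 and ccb203, differed by -0.20 (adjusted p = 0.448) and 0.07 (adjusted p = 0.785), with overlap, and orfX, which encodes a membrane transport protein, by 0.02.

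The plastid genome carries ndh genes for a complex that is related to complex I and acts in electron flow around photosystem I. Of its 10 probe sets 9 were lower in des1-1 and 1 was higher, with a median of -0.11. At an unadjusted p under 0.05 in limma, 4 of the 10 were lower, against 7.66% of all probe sets. Among all 69 plastid-encoded probe sets 56 were lower and 12 higher, with a median of -0.23, so lower values were not particular to ndh. In limma 1 of the 10, ndhH, fell (adjusted p = 0.0113), while 0.0572% of all probe sets fell. The ndhH set read 6.80, 6.80 and 6.92 in des1-1 against 7.47, 7.46 and 7.50 in wild type. The ndhJ set differed by -0.43 (adjusted p = 0.196) and ndhK by -0.35 (adjusted p = 0.284). The difference between the nad and the ndh sets was not tested. Averaged over all 69 plastid-encoded probe sets, the centred values were 0.04, -0.34 and -0.19 in des1-1 and 0.12, 0.30 and 0.07 in wild type, and the highest average was on wild type 2, where the 25S control was also high. The part of that array in the lower ndh values was not tested.

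Nuclear genes of the same complexes were examined only where a probe set carried a single name. None of these was past the test, yet those of complex IV were all on the higher side. Of the 16 genes of the nuclear complex IV list, 9 had such a probe set. All 9 were higher in des1-1, with a median of 0.23. No set passed the limma test, and 5 were higher at an unadjusted p under 0.05, against 7.9% of all probe sets. In 5 of the 9 every mutant array exceeded every wild-type array, against 9.87% of all probe sets. AT1G53030, a copper chaperone of the COX17 type that serves complex IV assembly, read 6.75, 6.58 and 7.54 in des1-1 and 6.03, 6.09 and 6.29 in wild type (difference 0.82, adjusted p = 0.154). Its mutant values were widely spread, with des1-1 3 far above the others.

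AT2G47380, which encodes a small complex IV subunit, read 11.19, 11.33 and 11.41 in des1-1 and 10.91, 10.92 and 11.09 in wild type (difference 0.34, adjusted p = 0.151). AT5G57815 and AT3G62400 differed by 0.31 (adjusted p = 0.195) and 0.23 (adjusted p = 0.208), again without overlap.

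Of the 20 genes of the nuclear complex I list, 11 had a probe set with a single name. Of these, 8 were higher and 3 lower, with a median of 0.10. No set passed the limma test, and 2 were higher at an unadjusted p under 0.05, against 7.9% of all probe sets. AT3G06310 differed by 0.33 (adjusted p = 0.179), AT4G16450 by 0.18 (adjusted p = 0.261), AT2G20360 by -0.16 (adjusted p = 0.329) and FRO1, a peripheral-arm subunit, by 0.16 (adjusted p = 0.428).

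The alternative respiration list holds alternative oxidases, alternative NADH dehydrogenases and an uncoupling protein. Of its 13 genes, 5 had a probe set with a single name. All 5 were alternative NADH dehydrogenases, which bypass complex I without pumping protons. Their counts past the limma test and at an unadjusted p under 0.05 were both 0. The alternative oxidases and the uncoupling protein had no such probe set, so their signal was not examined. NDB3 differed by 0.24 (adjusted p = 0.411), NDB1 by -0.14 (adjusted p = 0.571), NDC1 by -0.05 and NDB4 by 0.02. Of the 10 genes of the mitochondrial stress list, 3 had a probe set with a single name. Again 0 were past the limma test and 0 had an unadjusted p under 0.05. AT2G21640, a gene induced by oxidative stress, differed by 0.35 (adjusted p = 0.327), AT5G09570 by 0.12 (adjusted p = 0.489) and NDB2 by 0.02. Only in AT5G09570 did every mutant array exceed every wild-type array, as in 9.87% of all probe sets.

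Of the 16 listed nuclear factors of mitochondrial RNA synthesis, splicing and decay, 7 had a probe set with a single name. Their median difference was -0.08, with 2 higher and 5 lower. The counts past the limma test and at an unadjusted p under 0.05 were again 0. AT3G48810, a pentatricopeptide repeat protein, read 6.12, 6.13 and 6.01 in des1-1 and 6.15, 6.15 and 6.33 in wild type (difference -0.12, adjusted p = 0.536). Every mutant array lay below every wild-type array there, as in 8.66% of all probe sets. OTP43, needed for trans-splicing of nad1, differed by -0.08 (95% interval -0.29 to 0.14). AT5G14580, the mitochondrial polynucleotide phosphorylase that degrades RNA, differed by -0.10 (adjusted p = 0.698), and AT5G04050, a maturase needed for nad1 splicing, by -0.11 (adjusted p = 0.616).

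**Figure D5:**
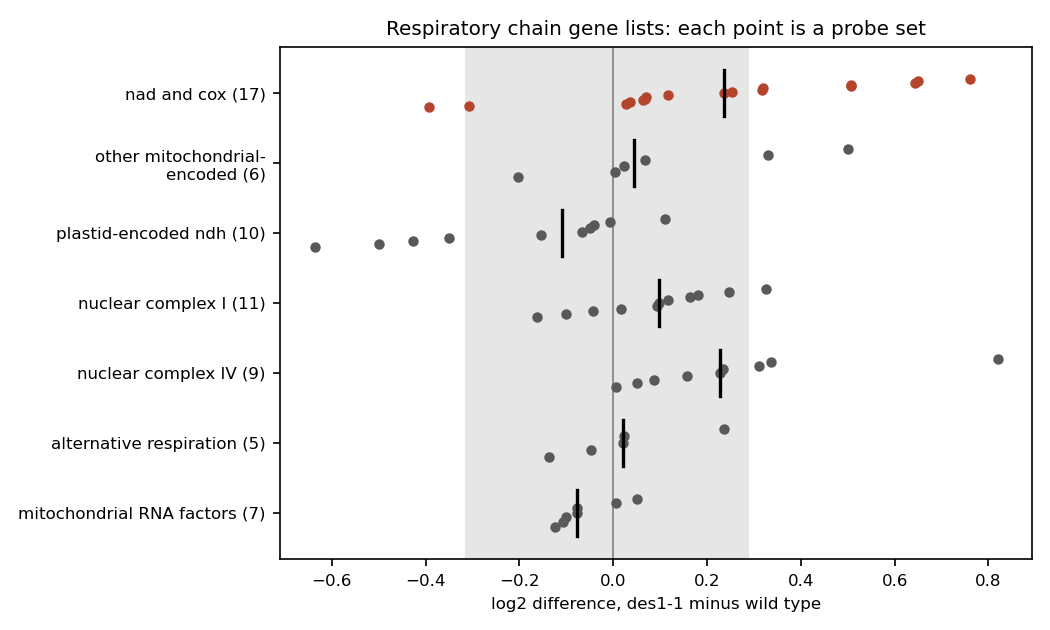
Log2 differences, des1-1 minus wild type (horizontal axis), of each probe set in the nad and cox group and in 6 gene lists (vertical axis, number of probe sets in brackets), with a black bar at each median. The grey band spans the 5th to 95th percentile of all probe sets, and the medians of nad and cox and of nuclear complex IV lie farthest to the right, at 0.24 and 0.23.

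For each gene the non-member probe sets most like it were taken by the root mean square difference of centred values over the 6 arrays, in log2 units, among 13496 probe sets with a single gene, using the brightest set of each gene. Closest to cox1 were AT5G18310 (0.0552), AT4G17070 (0.0577) and AT5G03460 (0.0704). The first 2 were past the test in des1-1 (adjusted p = 0.0248 and 0.029 in limma). Sets picked as like cox1 over these arrays have a like genotype difference by the choice itself, so this is not a separate result. Closest to nad1 257324_at were AT4G21870 (0.0797), AT1G26800 (0.0826) and AT4G17470 (0.0896), none past the test. For nad4L they were PRA1.G1 (0.0214), AT1G72170 (0.0261) and PMEPCRF (0.0263).

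The nad5 set was closest to AT4G28330 (0.0443), AT2G07741 (0.0455) and AT1G08230 (0.0473). AT2G07741 is a locus of chromosome 2 read by an _s_at set, and whether its probes also match mitochondrial transcripts was not tested. The cox2 set was closest to AT4G28770 (0.039), AT1G18340 (0.0398) and FHL (0.04). The nad2 set was closest to AT2G46630 (0.0313), AT1G73110 (0.0538) and AT1G73040 (0.0545), and nad7 to EXLB1 (0.0372), AT1G73200 (0.0386) and scpl20 (0.0407). Nearest to nad4 were AT4G31140, AT3G49820 and AT3G11960 (0.043 to 0.0522), and to nad6 AT1G32700, AT5G09570 and AT5G58750 (0.017 to 0.0211). The nad9 set was nearest to SAG101 (0.0613), AT1G16810 (0.0614) and AT2G39920 (0.064). With 6 arrays such likeness is a description only.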

How the data were processed

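The authors deposited 1 table of log2 expression values for 6 arrays, computed by RMA (affy package), per the submitters' processing notes; versions and the probe definition are not given in the sources used here. The log2 values have 2 decimals and run from 3.63 to 14.63. RMA corrects background, brings arrays to a common distribution and summarises each probe set, so a change common to every gene of an array is lost. Of 22810 probe sets 64 controls were left out. The platform annotation gave 1 gene for 13513 of the other 22746, several for 503 and none for 8730. Names were updated through the TAIR10.1 reference table, from which no coordinates were used. The mitochondrial gene identifiers of the annotation are older than that table, so these genes were matched by symbol.

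The genotype contrast was fitted in R 4.3.3 by lmFit and eBayes of limma 3.58.1, with no further term, two-sided p-values and Benjamini-Hochberg adjustment over all 22746 probe sets. SE, 95% intervals and p-values come from this fit. It was also run on simulated data, where recovery was required only for changes larger than that of any member. Other steps used Python 3.11.15, pandas 2.3.3 and matplotlib 3.10.9. The 3 arrays per genotype are biological replicates per the labels, and their number limits the precision. The 15 alternatives comprised other normalizations, removal of dim probe sets, an intensity trend or robust moderation in eBayes, weighted arrays, the replicate number as a block, and fits with 1 array left out.

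The members, the gene lists and the tests were chosen with earlier results of these data known. Every nad and cox probe set is named. Other mitochondrial probe sets are named up to 4 per functional group, which took in all 6. Up to 4 genes per nuclear list and 3 of ndh are named by smallest unadjusted p, with the 3 nearest probe sets of each member gene. The other mitochondrial probe sets were found by symbol, since the locus numbers meant for that step are in neither table.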

Additional observations from a re-analysis of the deposited data

How the results depend on the processing

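The count of 3 nad and cox calls was unchanged under median centring, quantile normalization, cyclic loess, both eBayes settings, array weights and removal of the dimmest 25%. It was 2 without the dimmest 50%, which took out nad1 257322_at, and 0 to 5 with 1 array left out. Over all probe sets, 88 calls became 151 with an intensity trend and 20 (without wild type 3) to 765 (without des1-1 1) with 1 array left out. The members' median of 0.24 was 0.58 without the dimmest 50%, which left 4 probe sets, and 0.15 to 0.29 with 1 array left out. The cause of these changes was not tested. The sign turned for 3 nad1 sets near 0. With 1 array left out 257321_at ran from -0.0183 to 0.15, 257327_at from -0.09 to 0.13 and 257329_at from -0.0517 to 0.0933, and 257329_at was -0.005 with arrays weighted. The labels do not say that a replicate number pairs arrays, so the numbers were not taken as pairs. The deviations of mutant and wild-type arrays of one number had correlations of 0.167, -0.229 and 0.211. Deviations centred within each genotype cannot correlate positively with every array of the other, so these values do not settle pairing. Only for numbers 1 and 3 was the same number the best match. The replicate block gave 183 calls over all probe sets and the same count of 3 among nad and cox.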
